A study of Mus musculus with 2 samples.

Results

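The transcripts described here are the long spliced RNAs of the annotation that were read in old mouse heart. A transcript was a member when its model carried the class Known, had at least 2 exons and was listed at 5000 bases or longer. The rule uses the class, the exons and the length, and no read count beyond the presence of a row. It found 1342 transcripts of 1252 genes, out of 15387 known spliced transcripts and 16779 Known transcripts with a read in either library. Replicate 1 held 1051 members among its 58133 mouse transcript models and replicate 2 held 1073 among 63023. Both libraries came from heart of female B6CASTF1/J mice, a hybrid of the B6 and CAST strains, at an age of 18 to 20 months, and they formed the only group, without treatment or control group in the labels. Each library was made from 2 µg of RNA and has its own biological sample entry, while the donor entry is shared, so differences between them may be partly technical.

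In long-read RNA sequencing a single read can follow an RNA across many exon junctions. A model of the class Known has every intron of an annotated transcript, while the ends of its reads may lie elsewhere, and an incomplete splice match has only a consecutive part of those introns. New forms either join annotated splice sites in a new way or use a splice site that is not annotated, and the genomic class holds reads whose exon structure overlaps a gene without matching its introns. An mRNA can be long in different ways. Myosins, collagens and laminins have long coding sequences spread over many internal exons, whereas many short proteins are encoded by mRNAs whose last exon holds a long 3′ untranslated region.

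Tissue markers and depth describe the libraries as a whole. Mouse reads numbered 630211 in replicate 1 and 664319 in replicate 2, with 12759 and 12890 further reads on control RNAs. The 5 cardiomyocyte markers all had reads and summed to 10477 and 10227, and the 3 neuron markers had none. Globin genes and Alas2, which mark red blood cells, summed to 15295 reads in replicate 1 and 6404 in replicate 2. Fat cell markers summed to 23 and 349, and the airway markers Scgb1a1 and Bpifa1 had 0 and 363. In such tissue RNA, fewer cells of a type and less RNA per cell cannot be told apart.

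Splice junctions decide which member a read is assigned to, so the junctions that separate members of 1 gene are printed here. Each sequence runs 5′ to 3′ across a junction in the spliced RNA, with the bases after the junction in capitals, and was read from the GENCODE M21 transcript sequences (mm10). Myh6-201 and Myh6-205 join the same donor in the 5′ untranslated region to different acceptors (introns chr14:54965900-54966553 and chr14:54965836-54966553, minus strand). The acceptors lie 64 bases apart, and the 2 transcripts share 37 of 38 introns and a coding sequence of 5817 bases.
Myh6-201: atttctccaacccagGATCTCTGGATTGGT
Myh6-205: atttctccaacccagCTGCGCCACTGTGGT
In Myom1, which encodes the M-band protein myomesin 1, Myom1-203 skips an exon (intron chr17:71080896-71084237, plus strand) that Myom1-202 includes.
Myom1-203: tcaaagctgctatcgCCGTGCCATCTGCGC
Myom1-202, into the exon: tcaaagctgctatcgGGGGAGGAGTGTCTC
Myom1-202, out of the exon: agaaagatccagtagCCGTGCCATCTGCGC
The exon itself is exon 18 of Myom1-202, chr17:71082203-71082496, and its 294 bases add 98 residues to the protein. It is printed whole, all in lower case, because it is the only difference between the coding parts of the pair.
Myom1-202, exon 18: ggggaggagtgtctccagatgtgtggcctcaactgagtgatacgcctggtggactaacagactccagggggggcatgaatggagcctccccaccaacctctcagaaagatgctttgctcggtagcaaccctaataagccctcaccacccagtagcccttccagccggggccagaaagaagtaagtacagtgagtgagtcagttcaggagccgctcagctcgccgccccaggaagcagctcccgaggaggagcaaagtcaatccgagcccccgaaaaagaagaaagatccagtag
In Qk, which encodes the RNA-binding protein quaking, Qk-204 and Qk-206 leave the same donor for different acceptors in the coding sequence (introns chr17:10213434-10216159 and chr17:10214195-10216159, minus strand), and encode proteins of 341 and 319 residues.
Qk-204: ccagtggtgtgttagGTGCGGTGGCTACTA
Qk-206: ccagtggtgtgttagGTATGGCTTTCCCAA

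The members were a small part of what was sequenced. They held 11990 reads in replicate 1, which was 1.90% [1.87 to 1.94] of its mouse reads, and 11880 in replicate 2, which was 1.79% [1.76 to 1.82], with a mean of 1.85% ± 0.0808 (SD, n = 2). Bracketed ranges are exact 95% intervals and cover counting error only. Of the reads on known spliced transcripts, members held 3.05% and 2.93%. The annotation lists 6784 transcripts of this kind in 3989 genes, so 19.8% of them had a read. Of the members, 782 had reads in both libraries, 269 in replicate 1 alone and 291 in replicate 2 alone. A single read over both libraries was all there was for 420 members, 302 had at least 10 and 27 had at least 100.

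Most members owed their length to the last exon. Their median length was 6117 bases and their median number of exons 14, against 2020 bases and 7 exons in the shorter known spliced transcripts with reads. The last exon had a median of 3940.5 bases and the internal exons together 1793, and the last exon made up more than 50% of the length in 894 members, or 66.6%, against 43.1% of the shorter transcripts. Among the 1325 members with a coding sequence, 864 had a 3′ untranslated region longer than the coding sequence (65.2%, against 34.7% of the shorter ones). Long coding sequences were the smaller class: 139 members had at least 5000 coding bases and 102 had at least 5000 bases in internal exons alone. By type, 1320 members were protein coding, 10 were retained-intron transcripts and 5 were lincRNAs. All introns were shared with another annotated transcript in 14 members, and the reads of these are uncertain between the copies.

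Alpha myosin heavy chain, the main motor protein of the adult mouse ventricle, led the members. Its 2 member transcripts, Myh6-201 and Myh6-205, held 4031 reads in replicate 1 and 3639 in replicate 2, which was 33.6% and 30.6% of all member reads. Myh6-201 (chr14:54941921-54966641, minus strand) has 39 exons and 6113 bases, of which 5944 lie in internal exons and 81 in the last. It had 3092 reads in replicate 1 and 2766 in replicate 2, or 4541 ± 615 CPM (reads per 1000000 TMM-scaled mouse reads, SD, n = 2). Myh6-205 had 939 reads in replicate 1 and 873 in replicate 2. The acceptor of Myh6-201 thus held 76.7% and 76.0% of the reads of the pair. Both libraries used the 2 acceptors in close to the same proportion.

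The next members had most of their bases in the last exon, and most of them encode short proteins. Sod2-201 encodes the mitochondrial manganese superoxide dismutase, and 5109 of its 5861 bases lie in the last exon. It had 405 reads in replicate 1 and 433 in replicate 2, or 647 ± 6.37 CPM. Rps15a-204, of a protein of the small ribosomal subunit, had 267 reads in replicate 1 and 301 in replicate 2, and only 304 of its 5179 bases were internal. Timm17a-201, of a subunit of the mitochondrial inner membrane translocase, had 193 reads in replicate 1 and 189 in replicate 2. Eif4g2-213, of a translation initiation factor with a longer coding sequence of 2721 bases, had 156 and 176. Glo1-206, of glyoxalase 1, had 163 and 164. Among the first 20 by reads were also the catalytic subunits of protein phosphatases, Ppp2ca-201 with 149 and 142 reads and Ppp1cb-201 with 102 and 108. The small GTPase transcripts Rab11b-201 and Rab18-205 had 105 and 69 reads in replicate 1 and 77 and 98 in replicate 2. The first 20 members held 53.1% of member reads in replicate 1 and 51.0% in replicate 2.

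**Figure D1:**
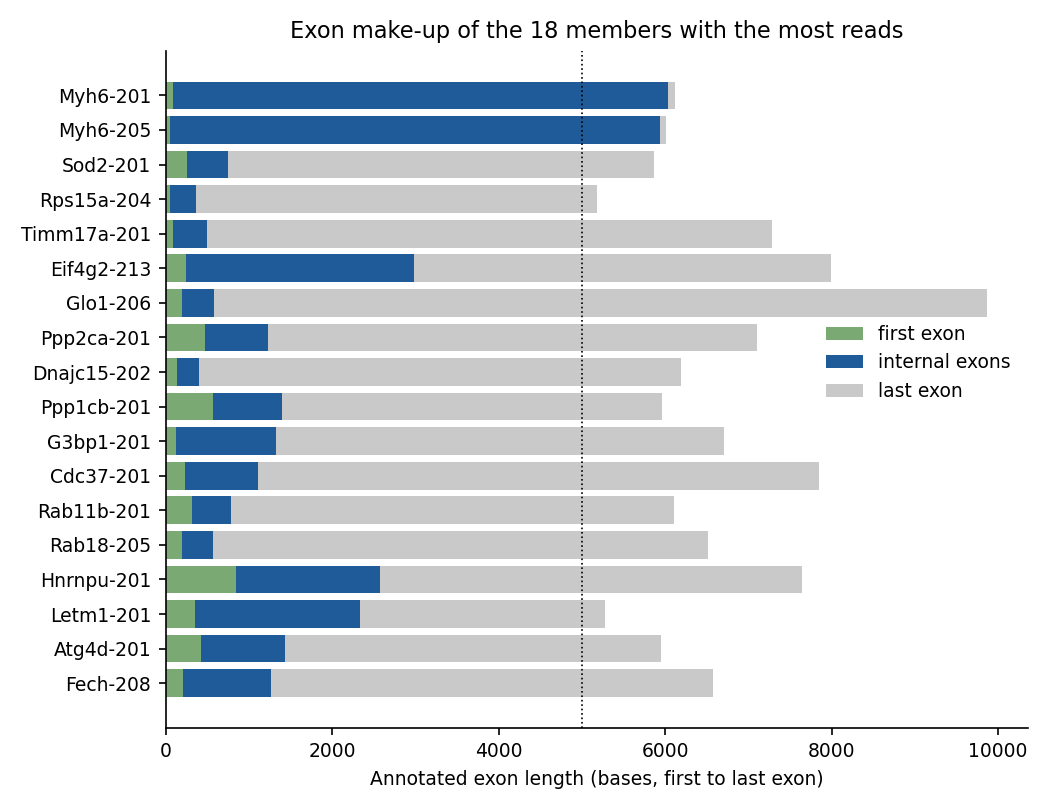
Annotated exon length in bases of the 18 members with the most reads, split into first exon, summed internal exons and last exon, in order of reads from the top. The dotted line marks the 5000 bases of the rule. Myh6-201 and Myh6-205 consist almost wholly of internal exons, whereas the last exon is 5109 of 5861 bases in Sod2-201 and 4822 of 5179 in Rps15a-204.

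At the ends of the range the reads were few. The longest member was D10Wsu102e-201, listed at 123179 bases because of a last exon of 122802, with 0 reads in replicate 1 and 3 in replicate 2. Among members read in both libraries, Hnrnpr-207, of an RNA-binding protein of the spliceosome, was the longest at 21452 bases, with 2 reads in replicate 1 and 9 in replicate 2. Serbp1-201, at 15474 bases, had 14 and 7. Pnpla8-201, of a calcium-independent phospholipase, stood out among the 10 longest. It is 13507 bases long, with 11208 of them in the last exon, and had 53 reads in replicate 1 and 74 in replicate 2, or 77.9% [66.2 to 87.1] and 81.3% [71.8 to 88.7] of its gene's reads. The other 9 of the 10 longest had at most 14 reads in a library.

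The most exons among members belonged to Col5a3-201, a fibrillar collagen transcript with 67 exons, which had 0 reads in replicate 1 and 1 in replicate 2. Among those read in both libraries was Tln1-201, of the adhesion protein talin 1, which had 57 exons with 1 read in replicate 1 and 2 in replicate 2. Collagen transcripts gave more. Col3a1-201, with 51 exons, had 32 reads in replicate 1 and 70 in replicate 2, and Col4a1-201, with 52 exons, had 15 and 19. For the neighbouring Col4a2-201, with 48 exons, the numbers were 15 and 6.

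The length boundary of the rule cut through similar transcripts. Just inside it were Srl-201 with 5000 bases and 50 reads in replicate 1 and 57 in replicate 2, Btg1-201 with 5001 bases and 20 and 27 reads, and Nudt21-201 with 5010 bases and 21 and 17. Just below it were Rfc2-201 with 4995 bases and 9 and 5 reads, Gabpa-201 with 4987 bases and 5 and 12, and Dcun1d1-201 with 4980 bases and 4 and 7.

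Whether an annotated long transcript was seen at all varied with its internal exons. Among genes that had 20 or more reads in each library, members made up 249 of 523 annotated long spliced transcripts. With under 1000 internal bases, 78.0% of these transcripts had a read. The share was 66.7% from 1000 to under 2000 internal bases, 60.0% from 2000 to under 3000 and 49.2% from 3000 to under 4000. It was 20.3% from 4000 to under 5000 and 18.5% at 5000 or more. By total length in the same genes, the share of the long transcripts with a read also varied, though not in steady steps. It was 54.0% from 5000 to under 6000 bases, 48.8% from 6000 to under 7000, 40.8% from 7000 to under 8000, 47.6% from 8000 to under 10000 and 18.4% at 10000 or more. Over annotated spliced transcripts of any length, 47.1% of those of 1000 to under 2000 bases had a read, 50.7% of those of 3000 to under 4000 and 47.6% of those of 5000 or more. Transcripts of 1 gene share its reads, so they are not independent of each other and no test was made.

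**Figure D2:**
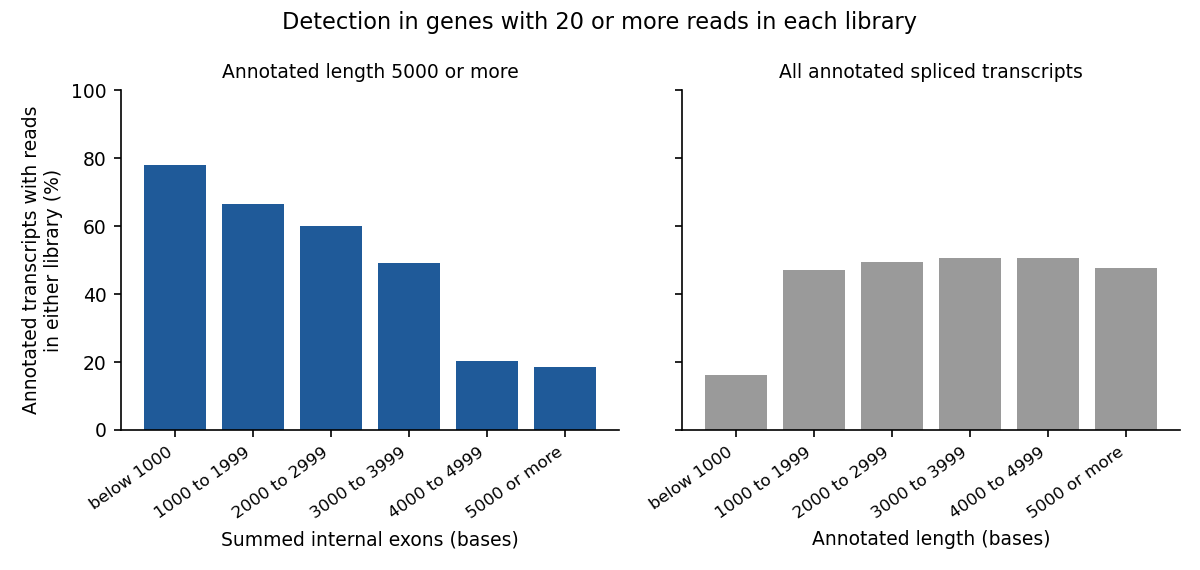
Percentage of annotated spliced transcripts with a read in either library, among genes that had 20 or more reads in each library. On the left, transcripts of 5000 bases or more by summed internal exon length, with bars from 78.0% down to 18.5%, and on the right all annotated spliced transcripts by total length, with bars between 47.1% and 50.7% from 1000 bases on and 16.2% below 1000.

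The full-length share of a gene is used here for the reads of its members as a percentage of all reads listed for the gene. It counts complete intron chains of members alone, so reads on shorter known transcripts of the gene lower it. It does not show that a read covered the whole annotated length. In 225 genes with member reads and 20 or more reads in each library, its median was 38.1% in replicate 1 and 36.4% in replicate 2. The mean of these medians, 37.2%, depended on the genes and reads taken as base, with 22.3% over the 70 genes with 50 or more reads in each library and 71.5% with only Known transcripts and incomplete splice matches as base. The spread among genes was wide. The share was above 50% in 88 genes of each library, 81 of them in both, and below 10% in 68 genes of replicate 1 and 59 of replicate 2, 55 of them in both.

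That share also ran with the internal exons. The median was 73.3% in replicate 1 and 66.7% in replicate 2 for the 77 genes whose leading member had under 1000 internal bases. For the 51 genes with 1000 to under 2000 it was 48.0% and 43.7%, for the 40 genes with 2000 to under 3000 it was 36.8% and 33.8%, and for the 24 genes with 3000 to under 4000 it was 15.3% and 19.6%. The 13 genes with 4000 to under 5000 had 9.62% and 10.7%, and the 20 genes with 5000 or more had 3.81% and 5.14%. Each step of the median was downward in both libraries. The pooled reads of a class did not follow at the last step. They gave a share of 16.7% and 17.6% from 4000 to under 5000 internal bases and of 40.4% and 37.8% at 5000 or more, where Myh6 itself had 44.6% and 41.9%. Without Myh6 the share at 5000 or more was 11.8% and 7.93%. Incomplete splice matches ran the other way, with median shares of 1.64% and 3.03% of gene reads in the first of these classes and 50.1% and 49.6% in the last. Over the 225 genes, Spearman's rho of the share was −0.44 in replicate 1 and −0.45 in replicate 2 with internal length, −0.36 and −0.36 with the number of exons, and −0.03 and −0.04 with total length. With the length of the last exon it was 0.39 and 0.41. The median last exon was 5182 bases in the first class of internal length and 564 in the last. Internal and last exon length therefore cannot be told apart here. All of these values are descriptions across genes that share a library and its depth.

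**Figure D3:**
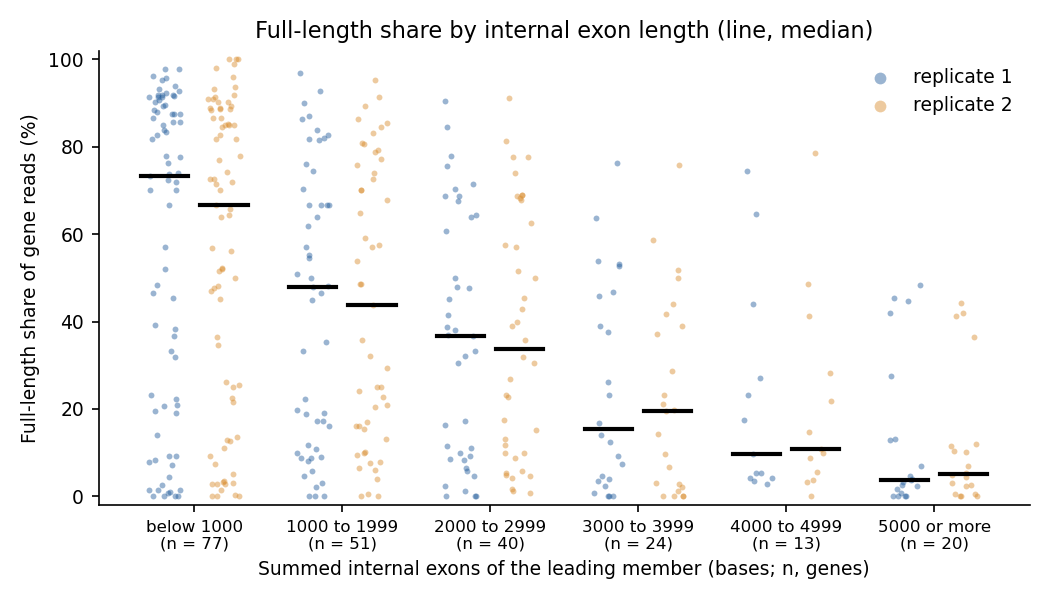
Full-length share of gene reads (%) for 225 genes with member reads and 20 or more reads in each library, by the summed internal exon length of the leading member. Each point is a gene, with replicate 1 left of replicate 2 in each class, and the black line is the median, which runs from 73.3% and 66.7% in the first class to 3.81% and 5.14% in the last.

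Genes led by a long transcript were then set beside genes led by a shorter one, at the same internal length. Over all internal lengths, known spliced transcripts of any length held a median of 57.1% of gene reads in replicate 1 and 54.9% in replicate 2 in the 178 genes led by a member, against 80% and 78.8% in the 2687 genes led by a shorter transcript. With under 1000 internal bases the medians were 85.9% and 85.0% in 58 member-led genes, against 84.6% and 84.0% in 1874 others. From 1000 to under 2000 they were 54.5% and 57.1% in 45 member-led genes, against 70.9% and 71.4% in 636. From 2000 to under 3000 they were 48.0% and 50% in 29, against 58.8% and 57.6% in 145. The gap between the 2 kinds of gene was thus under 2 points in the first class and wider in the next ones. No test was made, because the leading transcript was chosen by its reads.

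The other reads of the member genes fell into several classes. Without Myh6, members held 38.4% of the reads of these genes in replicate 1 and 38.1% in replicate 2. Incomplete splice matches held 18.1% and 18.7%, the genomic class 21.8% and 22.6%, other known spliced transcripts 10.5% and 9.99%, and new forms from annotated splice sites 6.49% and 6.43%. In all other annotated genes the genomic class held 9.06% and 7.90% and incomplete splice matches 15.3% and 17.8%. For Myh6 alone, 31.4% and 34.7% of reads were incomplete splice matches and 20.3% and 19.5% were new forms from annotated sites.

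Rows of the class Known carry the annotated length, so the lengths of read-derived models were looked at in the same genes. New spliced forms, those with annotated or unannotated sites in a new combination, reached 5000 bases in 13.5% of models in replicate 1 and 10.5% in replicate 2 where the leading member had under 1000 internal bases. Without Myh6 the figures were 8.93% and 10.3% from 1000 to under 2000 internal bases, 34.0% and 29.96% from 2000 to under 3000 and 47.5% and 39.8% from 3000 to under 4000. They were 61.0% and 53.2% from 4000 to under 5000, and 61.1% and 63.0% at 5000 or more. A new form that keeps 5000 internal bases reaches 5000 bases by these alone, so the rise is partly built into the classes. Incomplete splice matches without Myh6 reached 5000 bases less often, with 3.97% and 2.87% in the first class and 16.8% and 12.7% in the last. From 4000 to under 5000 their figures were 5.70% and 6.89%. Single genes differed in the direction of the new forms. Counting incomplete matches and new forms together, 253 of 424 Myh6 models in replicate 1 and 224 of 376 in replicate 2 reached 5000 bases. Of the 7 such models of Sod2 in each library none did, and the longest had 1194 bases in replicate 1 and 3670 in replicate 2. The longest of Rps15a had 660 bases in both libraries, and those of Timm17a 4100 and 701. How many reads behind a member row covered all of its last exon was not tested, since the files list no read ends for these rows.

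**Figure D4:**
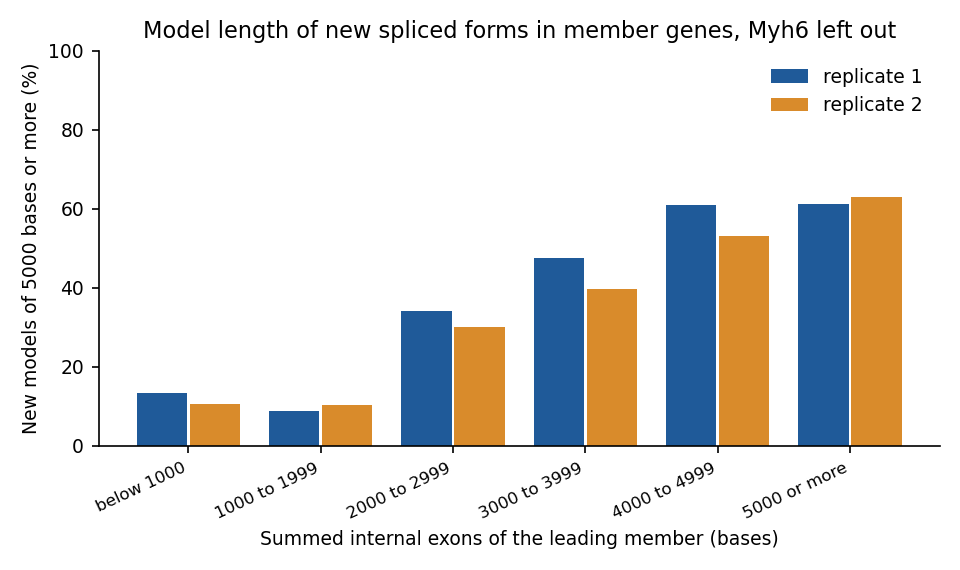
Percentage of new spliced models with a length of 5000 bases or more in member genes without Myh6, by the summed internal exon length of the leading member, with replicate 1 left of replicate 2. The bars are at 13.5% and 10.5% in the first class and at 61.1% and 63.0% in the last.

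The letters AATAAA, the main polyadenylation hexamer of mammals, were searched on the transcript strand downstream of the stop codon of the leading members. The first match and its surroundings, with the hexamer in capitals, are given for 5 of those with a long last exon, in which its place differed widely. It starts 13 bases after the stop codon in Rps15a-204 (chromosome 7), whose 3′ untranslated region is annotated at 4728 bases. In Timm17a-201 (chromosome 1) it starts at 215 of 6705 bases, in Glo1-206 (chromosome 17) at 1249 of 9202 and in Sod2-201 (chromosome 17) at 2925 of 4963. In Mrpl17-202 (chromosome 7) it starts at 6061 of 6651, near the annotated end.
Rps15a-204: acgtaaagcataAATAAAaagcctttgtgg
Timm17a-201: atctgtgatcaaAATAAAtgtctaatacca
Glo1-206: atcataggctgaAATAAAgctaacactgtt
Sod2-201: ttggaaaatactAATAAAagcaaaggtaac
Mrpl17-202: ctcccaccacccAATAAAgaacatgagaca
A match within the first 1000 bases of the 3′ untranslated region was found in 498 of 1178 members with a region of that size, or 42.3%, and in 7695 of 19010 annotated spliced coding transcripts, or 40.5%. Among these members it was 39.4% of the 368 with under 1000 internal bases, 53.4% of the 58 with 4000 to under 5000 and 71.9% of the 32 with 5000 or more. How far the annotated 3′ end lay beyond these 1000 bases was not taken into account in comparing the classes. A match is a description of the sequence, not of a cleavage site in use.

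Shares at the top of the range belonged mostly to genes with few internal bases. Mrpl17, of a mitochondrial ribosomal protein, has a leading member of 7300 bases with 69 internal ones, and 43 of 44 reads in replicate 1 and 48 of 48 in replicate 2 were assigned to it. Rps15a members held 97.8% and 99.04% of the gene's reads. The translation factors Eif1ax, with 96.3% and 100%, and Eif3j1, with 92.7% and 100%, and the GTPase Rab18, with 93.2% and 98%, were also among the first 10. Tmem214 and Gmps, which encodes the guanine nucleotide enzyme GMP synthetase, were the only 2 of these 10 above 1000 internal bases, with 1786 and 1953, and their shares were 97.0% and 91.4% and 92.9% and 95.2%. With 28 reads in replicate 1 and 21 in replicate 2, the interval for Gmps ran from 76.5% to 99.1% and from 76.2% to 99.9%.

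Shares at the bottom had different companions in each gene. Son, a nuclear speckle protein, had 1 member read among 62 in replicate 1 and 0 among 60 in replicate 2, which allows a share of up to 5.96% by the exact interval, and 98.4% and 93.3% of its reads were incomplete splice matches. Eif4g1, a scaffold of translation initiation, had 94.1% and 93.0% in this class, but of another kind. Reads matching the 5′ part of the intron chain numbered 59 and 53 in Son and 0 and 0 in Eif4g1. Those matching the 3′ part numbered 2 and 3 in Son and 49 and 47 in Eif4g1. Jarid2, a partner of the Polycomb complex, had 99.3% of its reads in the genomic class in both libraries, and Dysf, the membrane repair protein dysferlin, had 85.1% and 82.5% there. Adprhl1, a heart protein, had 4 member reads among 408 in replicate 1 and 1 among 451 in replicate 2, with 90.0% and 90.2% of reads on shorter known transcripts. Ank1, of ankyrin 1, likewise had 60.3% and 60.4% on shorter known forms. Pdlim5, of a Z-disc adaptor, had 51.3% of its reads in replicate 1 in forms with an unannotated splice site and 41.9% in replicate 2 in forms from annotated sites, and 0 and 1 member reads. Whether a new form of Pdlim5 carries different class names in the 2 separately annotated files was not tested.

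Some genes with an annotated long transcript and many reads had no member read at all. This held for 83 of the 308 genes that had 20 or more reads in each library and an annotated transcript of this kind. Atp2a2, the calcium pump of the sarcoplasmic reticulum, had 3119 reads in replicate 1 and 2933 in replicate 2, led by the shorter Atp2a2-202 with 3984 bases and 2149 and 1993 reads. Ryr2, the calcium release channel, had 80 reads in replicate 1 and 93 in replicate 2 against at least 14757 internal bases, and 63.8% and 71.0% of them were in the genomic class. Ttn, the giant spring protein titin, had 56 and 61, and Xirp2, of a protein of the intercalated disc, had 76 in each library, of which 98.7% and 96.1% were incomplete splice matches.

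By function, members were read in 19 of the 43 sarcomere and cytoskeleton genes that have an annotated long transcript, 16 of them in both libraries. Myh7, the beta myosin heavy chain, had 62 member reads in replicate 1 and 19 in replicate 2, or 48.4% [39.5 to 57.4] and 41.3% [27.0 to 56.8] of its gene's reads. Myom2, of the M-band protein myomesin 2, had 44 and 54, and Nrap, of a myofibril assembly protein, had 4 and 13. The median share of the 14 genes of this list with 20 or more reads in each library was 4.75% and 8.07%, with a median internal length of 4672.5 bases, beside 38.1% and 36.4% over all 225 genes. Among genes of channels, transporters and calcium handling, 9 of 24 had member reads. Srl, the calcium-binding sarcalumenin, had 50 in replicate 1 and 57 in replicate 2, which was 8.80% and 10.2% of its reads. Of all Srl reads, 59.9% and 62.7% were new forms from annotated sites.

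Extracellular matrix and adhesion genes had member reads in 16 of 30. The median share was 44.1% in replicate 1 and 41.3% in replicate 2 over 5 genes with a median of 4844 internal bases, beside 38.1% and 36.4% over all 225 genes. Col3a1 had 74.4% and 78.7%, Ltbp4, which binds latent TGF-beta, had 64.5% and 48.6%, and the laminin chain Lamb2 had 41.8% and 36.5%. Col4a2 differed, with 9.62% and 3.31% of its reads in members and 89.1% and 96.7% in incomplete splice matches. Energy and lipid metabolism genes had member reads in 12 of 19, among them the aspartate and glutamate carrier Slc25a12 with 36 and 46 reads, hexokinase Hk2 with 20 and 15 and the lipoprotein receptor Vldlr with 9 and 15. Fasn, the fatty acid synthase, had 0 member reads in replicate 1 and 8 in replicate 2, out of 1 and 49 reads of the gene. Fat cell markers moved with it, at 23 reads in replicate 1 and 349 in replicate 2, and their part in the Fasn values was not tested.

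Most regulatory and vessel genes contributed few reads each, apart from Hnrnpu. Members were read in 20 of 33 signalling genes, led by the interleukin 6 receptor chain Il6st with 14 reads in replicate 1 and 16 in replicate 2 and the adenylyl cyclase Adcy5 with 9 and 9. Of 40 transcription and chromatin genes 13 had member reads, led by Nfib with 12 and 17, and of 20 RNA-binding genes 10 had, led by Hnrnpu with 82 and 76. In endothelial and vessel genes it was 10 of 13, among them the VEGF receptor Kdr with 14 and 6 reads and the hypoxia factor Epas1 with 8 and 20. Fibroblast and fat genes had 2 of 3, both collagens already counted in the matrix list, macrophage and blood genes had 2 of 4, and none of the 5 long non-coding RNA genes of the list had a member read. These 5 had few reads of any class, with 4 and 7 for Xist, 3 and 1 for Tug1, and 0 for Meg3, Miat and Rian.

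More than 1 member was read in 86 genes, and in 26 of these at least 2 members were read in both libraries. Besides Myh6, Myom1 had 42 reads in replicate 1 and 27 in replicate 2 on Myom1-203, which skips exon 18 of the other form, and 4 and 1 on Myom1-202, which includes it. The form without the exon thus held 91.3% and 96.4% of the pair. The pair itself held only 17.6% and 10.7% of Myom1 reads, and incomplete splice matches held 79.8% and 87.4%. Qk-204, whose last residues differ from those of Qk-206, had 12 and 10 reads, against 4 and 7 on Qk-206. Map3k7, of the TGF-beta activated kinase, had 8 and 5 reads on Map3k7-202 and 6 and 4 on Map3k7-201, which adds an exon of 81 bases. Usp47, of a ubiquitin protease, had 22 and 11 on Usp47-202 and 6 and 5 on Usp47-201, which lacks an exon of 60 bases. The more abundant form was the same in both libraries in each of these genes. Tmem33 differed, with 9 and 11 reads on Tmem33-201 and 6 and 12 on Tmem33-202.

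Between the libraries the members were similar in number. Over the 782 members read in both, Spearman's rho of reads was 0.78 and Pearson's r of log2 reads 0.86, as a description over transcripts that share the 2 libraries, and Pearson's r was 0.85 without Myh6. An exact two-sided binomial test against TMM-scaled library sizes, with Benjamini-Hochberg adjustment over all 5877 known transcripts with at least 10 reads, called 2 of 302 members at 0.05 (0.662%), while it called 1.92% of all transcripts tested. Both were higher in replicate 1, where 0.885% of all transcripts were called higher, and none was higher in replicate 2, where it was 1.04%. Without adjustment 25 of the 302 members had a p under 0.05 by this test. That count was not set beside the one over all transcripts, so it describes no trait of the members. On the log2 scale the median ratio, replicate 1 over replicate 2, was 0.02 for members and 0.02 for all transcripts tested.

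Myh7-201 was 3.54-fold [2.09 to 6.26] higher in replicate 1, with 62 reads against 19 in replicate 2 (adjusted p = 3.03e-05, exact binomial test). Myh6-201 was 1.21-fold [1.15 to 1.28] higher in replicate 1, with 3092 reads against 2766 in replicate 2 (adjusted p = 4.98e-11, exact binomial test). Myh6 and Myh7 lie beside each other and are similar in sequence, and how reads that fit both were placed is not stated in the labels or files. This test takes counting error alone. With the spread among all known transcripts added, by edgeR's exact test at a common coefficient of variation of 0.1715, neither was called, with adjusted p of 0.0649 for Myh7-201 and 1 for Myh6-201. Col3a1-201, with 32 reads in replicate 1 and 70 in replicate 2, missed the threshold at an adjusted p of 0.0504 by the exact binomial test, at 2.02-fold [1.31 to 3.17] higher in replicate 2.

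**Figure D5:**
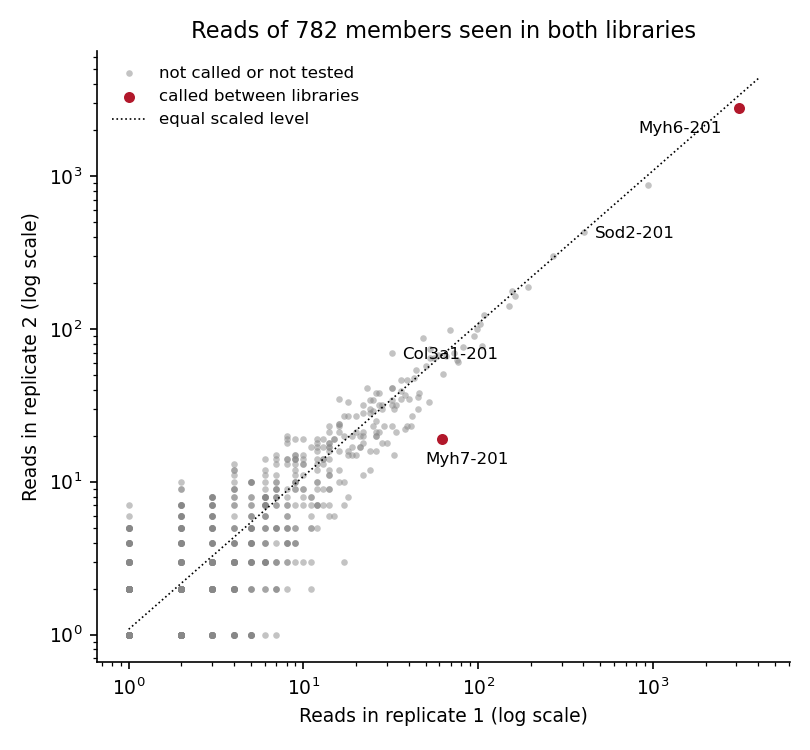
Reads in replicate 1 against reads in replicate 2 on log scales for the 782 members read in both libraries. Each point is a transcript, the dotted line marks equal levels after scaling, and the 2 red points, Myh6-201 and Myh7-201, are those called by the binomial test. Col3a1-201 lies above the line with 32 and 70 reads.

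Full-length shares repeated closely. Spearman's rho of the share in replicate 1 against that in replicate 2 was 0.96 over the 225 genes, which share the 2 libraries. Fisher's exact test of each member's reads against the other reads of its gene called 0 of 436 members with Benjamini-Hochberg adjustment. Of all 7959 known spliced transcripts tested it called 0.088%. Without adjustment 10 of the 436 members had a p under 0.05, a count not set beside the one over all transcripts. The Myh7-201 values show the contrast between the measures: its reads differed 3.54-fold, and its shares of 48.4% and 41.3% had overlapping intervals. Neither test compares conditions, since the libraries belong to 1 group.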

How the data were processed

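The 2 deposited tables of long-read counts, 1 per library, were used with the deposited transcript models. The tables hold raw read counts per transcript model together with the class, number of exons and length of each, per the file headers. The notes deposited with each library state mm10 and GENCODE M21, and TALON is the source named in the models. No aligner, version or filter is given in the sources used here. Models are listed only when they have reads, so an unlisted transcript was taken as 0 reads. Listed length and exons of every Known row equalled the annotation, with 0 differences.

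Exon lengths, untranslated regions and sequences came from GENCODE M21. Full-length shares used all listed reads of a gene, whatever their class. Depth was 630211 and 664319 mouse reads, so 1 read in replicate 1 was 1.61 CPM and 1 read in replicate 2 was 1.48 CPM. Intervals are Clopper-Pearson 95% intervals and cover counting error only, since reads without molecular identifiers are not independent molecules. Library sizes were scaled by TMM in edgeR 4.0.16 (R 4.3.3) on annotated genes with at least 10 reads. Log2 ratios had 0.5 reads added to each library, and the folds with their intervals were taken without this addition. The binomial test took known transcripts with at least 10 reads over both libraries, and Fisher's exact test took known spliced transcripts of genes with at least 10 reads in each. With 1 group there is no contrast, and the p-values measure only the difference between these 2 libraries, which may be technical.

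Named transcripts were the 20 with the most reads, the 10 longest and the 10 with the most exons among those in both libraries, the 10 highest and 10 lowest full-length shares, every called member, those nearest the length threshold, genes with several members and up to 4 per gene list. D10Wsu102e-201, Col5a3-201, Fasn and the genes without members were named after their values were seen. A few genes that this rule names are not reported here. The members and lists were chosen with earlier results of these data known. Alternatives covered length limits, read minimums, the base of the shares, library sizes (DESeq2 1.42.0 size factors) and edgeR's exact test. Procedures were tested on simulated data. Other steps used Python 3.11.15, numpy 2.4.6, pandas 2.3.3, scipy 1.17.1 and matplotlib 3.10.9.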

Additional observations from a re-analysis of the deposited data

How the results depend on the processing

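The number of members read in both libraries, 782, was 378 with at least 3 reads in each and 254 with at least 5, and it was 1691 at a limit of 4000 bases and 407 at 6000. The share of mouse reads, 1.85%, was 2.80% with only Known reads as base, 2.02% without the genomic class, 3.93% at 4000 bases and 1.22% at 6000. It was 1.25% without Myh6, an alternative chosen after seeing the data. Left-out libraries gave 1.79% to 1.90%. The full-length share, 37.2% as the mean of the 2 medians, was 49.4% without the genomic class, 71.5% with only Known transcripts and incomplete splice matches as base, 22.3% with at least 50 gene reads in each library, 44.3% at 4000 bases and 34.2% at 6000. Left-out libraries gave 36.4% to 38.1%. The 2 calls between libraries became 4 of 69 members with at least 50 reads, with Col3a1-201 and Myh6-205 added. Of all transcripts, 130 of 2002 were then called. By edgeR's exact test at the common dispersion 0 of 302 members were called, and 33 of all 5877 transcripts. With total mouse reads as sizes there were 3, Col3a1-201 added, beside 104 of 5877. With DESeq2 size factors there were 2, beside 113 of 5877, and without a read minimum 2 of 1342, beside 93 of 16779. Fisher's exact test called 0 members. Without the genomic class it called 1 of 321, Myom2-201, beside 59 of all 7280 transcripts. Myom2 had 80 reads of the genomic class in replicate 1 and 0 in replicate 2. Its incomplete splice matches were 17.3% and 63.0% of its reads. With all reads as base, its member held 27.2% and 28.1%. Whether like reads of Myom2 carry different class names in the 2 libraries was not tested. Where not stated, the cause of a change was not tested. No paired analysis was possible because the libraries form 1 group. Most members have few reads, so a member at 0 in 1 library is not shown to be absent there.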

Other observations

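Members without a coding function were few. Of the 5 lincRNA members, 1700020I14Rik-202, with 3 exons and 8300 bases, had 25 reads in replicate 1 and 34 in replicate 2, and 1810026B05Rik-203 had 5 and 5. The retained-intron member Dnajb5-206, of a heat shock co-chaperone gene, had 4 and 5. Trak2-201, of a protein that links mitochondria to motor proteins, had 17 reads in replicate 1 and 3 in replicate 2, with an adjusted p of 0.0526 by the exact binomial test, and was named after its values were seen.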
